A study of Mus musculus with 8 samples.

Results

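The drug efflux ABC transporters are Abcg2, Abcb1a, Abcb1b, Abcc1, Abcc4, Abcc5 and Abcc6, chosen by gene name as 7 of the 46603 genes in the count table. Their transcripts were compared between label-retaining liver cells (LLRCs) and non-label-retaining (non-LRC) biliary cells. All mice, of mixed C57BL/6 and CBA background, carried R26rtTA and H2B-EGFP, each heterozygous, so that doxycycline switched on a histone fused to a green fluorescent protein, which each later division dilutes. Doxycycline was given from birth to postnatal day 5, through the drinking water of the nursing mothers, and livers were perfused and sorted at the age of 8 weeks. The rtTA stands in the Rosa26 locus, which is active in most cell types, so EGFP alone does not mark a cell type, and per the methods of the study the sort also required EpCAM on the surface and no CD45. Each of the 4 mice (JV602, JV621, JV624 and JV6314) gave 1 LLRC library (EGFP-positive) and 1 non-LRC library (EGFP-negative), and both groups shared the transgenes, the doxycycline and the gate.

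ABC transporters use ATP to move their cargo across membranes. The drug efflux members carry drugs, conjugates of glutathione, sulphate or glucuronate, and cyclic nucleotides out of cells, some at the apical side that faces bile and others at the basolateral side that faces blood. They were named for the resistance they give tumour cells, and ABCG2 and the P-glycoproteins are known for pumping out the dye that defines side population cells in several stem cell compartments.

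In these libraries no member differed between LLRCs and non-LRC cells beyond the spread between mice. Abcb1a and Abcg2 were the most abundant members per kilobase in both groups, Abcc5 and Abcc4 came next, and Abcb1b, Abcc1 and Abcc6 were low. Abcb1a averaged 111 ± 49.5 CPM in LLRCs against 81.3 ± 53.6 CPM in non-LRC cells (SD, n = 4 mice), where CPM is the count after each library is scaled by TMM to a common size. Abcg2 averaged 68.0 ± 23.9 CPM in LLRCs against 79.4 ± 29.5 CPM in non-LRC cells. The differences that were largest on the log2 scale, those of Abcc1 and the unfiltered value of Abcc6, rested on few reads.

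Total counts were between 7860021 and 9851819 in LLRC libraries and between 4670132 and 8056103 in non-LRC libraries. The non-LRC library of JV621 stood apart, with 14234 genes detected against 16042 to 20430 in the others. Of 13605 genes tested, 15.6% had 0 counts in it, 7.75% had 0 counts in the non-LRC library of JV6314 and at most 1.57% in any other library. Epcam was read at 583.5 ± 48.6 CPM in LLRCs against 551 ± 148 CPM in non-LRC cells, and Krt19, a keratin of bile duct cells, at 116 ± 28.0 and 134 ± 33.1 CPM, so both biliary markers were present. The 16 cholangiocyte genes summed to between 114740 and 221886 CPM in LLRC libraries and between 66443 and 162832 CPM in non-LRC libraries, most of it Spp1, and without Spp1 to between 2830 and 3241 against between 2054 and 3684 CPM. Aqp1 of that list, a water channel also known from endothelium, stood at 5.89 ± 2.01 against 99.5 ± 54.2 CPM, with no overlap (edgeR adjusted p = 0.0809). Alb, the albumin gene of hepatocytes, was read in both groups as well (2336 ± 198 against 2319 ± 604 CPM). Ptprc, which encodes CD45, was between 0.485 and 6.55 CPM in LLRCs and at most 1.38 CPM in non-LRC cells. Markers of other cell types moved with the group, since the summed level of 16 endothelial genes was between 29.3 and 79.1 CPM in LLRC libraries and between 242 and 1106 CPM in non-LRC libraries. The sum of 14 hepatocyte genes was between 3713 and 4502 CPM in LLRC libraries and between 2603 and 7626 CPM in non-LRC libraries, the highest values being those of JV624 and JV6314. Stellate and portal fibroblast genes summed to between 275 and 908 CPM against between 703 and 2899 CPM, leukocyte genes to between 15.9 and 33.7 CPM against between 21.5 and 42.9 CPM, and pancreatic acinar genes to at most 23.0 CPM in every library but the non-LRC library of JV6314, at 1504 CPM. The part of these cells in the levels below was not tested. In bulk RNA of this kind, fewer cells of a type and less RNA per cell cannot be told apart.

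The 2 mouse P-glycoprotein genes are shown first, because their sequences decide which reads can tell them apart. Abcb1a (chr5:8660077-8748575, plus strand, GRCm38) and Abcb1b (chr5:8798147-8866315, plus strand) are neighbouring protein-coding genes. Their coding sequences in the GENCODE M21 transcripts were identical at 88.3% of 3816 aligned bases, with a longest identical run of 338 bases. Of the 50-base words of the Abcb1a transcript, 18.6% occurred in a transcript of another gene, and 19.6% of those of Abcb1b did, whereas 0 words of the other 5 members did. The middle 120 bases of the identical run lie on exons 13 and 14 of both genes (chr5:8702496-8702835 and chr5:8824816-8825155, intron not shown). No base there differs, so none is in capitals, and a read from this stretch fits either gene.
Abcb1a and Abcb1b, identical stretch: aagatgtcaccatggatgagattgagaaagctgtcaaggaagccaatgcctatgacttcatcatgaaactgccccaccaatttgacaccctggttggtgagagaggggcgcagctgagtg
The 120-base window with the most differences lies on exons 17 and 18 (chr5:8715817-8719026 and chr5:8827778-8828870, intron not shown). Capitals mark the 38 bases that differ between the paralogues.
Abcb1a, divergent stretch: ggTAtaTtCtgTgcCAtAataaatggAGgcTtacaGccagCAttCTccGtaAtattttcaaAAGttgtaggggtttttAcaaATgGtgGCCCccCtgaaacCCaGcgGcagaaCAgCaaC
Abcb1b, divergent stretch: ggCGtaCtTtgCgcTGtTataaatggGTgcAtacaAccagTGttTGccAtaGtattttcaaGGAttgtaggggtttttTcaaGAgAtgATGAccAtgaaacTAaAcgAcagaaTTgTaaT
Reads across the divergent stretch can be assigned to 1 gene. How the aligner placed reads of the identical run is not given in the sources used here, so the split between both genes is uncertain by the share of such reads. Exons of Abcb1a also share 10.1% of their bases with Gm42686 on the opposite strand, and the counting ignored strand. Gm42686 was counted at 32 in the LLRC library of JV6314 and at 0 in the other libraries. Of the Abcb1b exon bases, 1.79% overlap Gm5106, which had at most 1 count in any library.

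Abcb1a encodes a P-glycoprotein that exports lipophilic drugs at the apical membrane. Taking the mice in the order JV602, JV621, JV624, JV6314, which is kept below, the LLRC libraries held 1613, 543, 498 and 1369 counts of it, or 156, 64.2, 73.2 and 152 CPM. The non-LRC libraries held 1286, 217, 358 and 316 counts, or 161, 45.3, 56.5 and 62.4 CPM. LLRCs were higher in 3 of 4 mice, most in JV6314, while in JV602 both libraries were high and nearly level, and the groups overlapped. The log2 fold change, given throughout as LLRC over non-LRC, was 0.45 (standard error 0.49, 95% interval -0.65 to 1.56, adjusted p = 0.9999 in edgeR's quasi-likelihood test). An exact permutation test of the CPM, two-sided, gave p = 0.314, where 0.0286 is the smallest p that 4 libraries against 4 allow. The size of this difference depended on single libraries. Without the non-LRC library of JV602 the log2 fold change was 1.02 (edgeR, unadjusted p = 0.0401, adjusted p = 0.533). It was 0.25 without the LLRC library of JV602, 0.26 without the non-LRC library of JV621 and 0.28 without the LLRC library of JV6314, and 0.09 with limma.

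Abcb1b encodes the second P-glycoprotein of rodents. Its counts in LLRCs were 85, 53, 36 and 62, which is 8.24, 6.27, 5.29 and 6.88 CPM. In the non-LRC libraries it had 77, 3, 62 and 19 counts, or 9.64, 0.626, 9.79 and 3.75 CPM. The LLRC libraries lay close together, and the non-LRC libraries spread from well below to above all of them. The log2 fold change was 0.16 (standard error 0.73, interval -1.48 to 1.80, edgeR adjusted p = 0.9999). Its sign turned without the non-LRC library of JV621, to -0.20, and without that of JV6314, to -0.0045.

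Within a library, the share of Abcb1a among the counts of both P-glycoprotein genes needs no scaling for depth. In LLRCs it was 94.99, 91.1, 93.3 and 95.7% in the order of mice given above, a mean of 93.8 ± 2.04% (SD, n = 4). The non-LRC shares were 94.4, 98.6, 85.2 and 94.3%, a mean of 93.1 ± 5.64%. Abcb1a thus made up most of the counts in every library. The means differed by 0.618 percentage points (exact permutation test, two-sided, p = 0.83). That difference turned to -2.01 without the non-LRC library of JV624 and to -0.018 without the LLRC library of JV6314, and was 2.45 without the non-LRC library of JV621. The extremes were both non-LRC libraries, that of JV624 with a 95% Wilson interval of 81.5 to 88.3% and that of JV621, with 217 of 220 counts, at 96.1 to 99.5%. These intervals cover counting error only, and both lie apart from those of the LLRC library of the same mouse, in opposite directions. The share of the non-LRC library of JV621 rests on 3 Abcb1b counts, in a library where 15.6% of the genes tested had 0 counts.

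**Figure D1:**
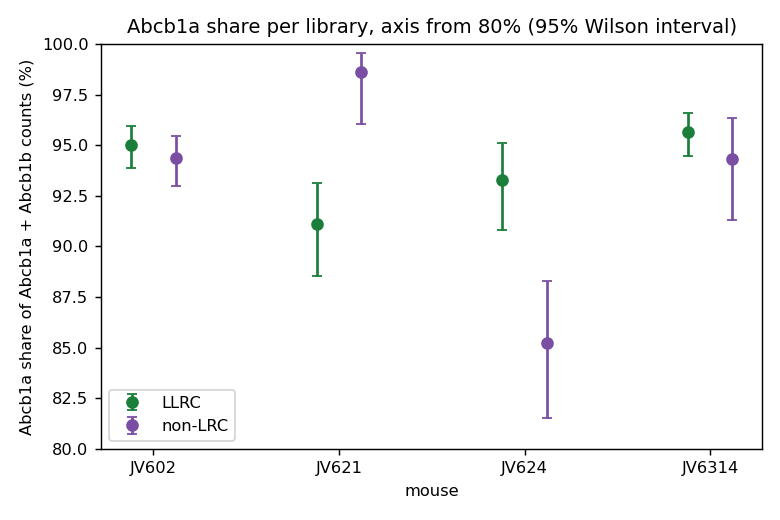
Share of Abcb1a among the summed counts of Abcb1a and Abcb1b in percent (axis from 80%), by mouse, for LLRC (green) and non-LRC (purple) libraries. Bars are 95% Wilson intervals of each library's counts. JV602 and JV6314 have nearly level shares. The non-LRC library of JV621, with 3 Abcb1b counts, is above its LLRC library (98.6 against 91.1%), and that of JV624 is below (85.2 against 93.3%).

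Abcg2 (chr6:58584523-58695676, plus strand) encodes the breast cancer resistance protein, an apical exporter of sulphated conjugates and many drugs. In LLRCs it had 633, 769, 254 and 740 counts, or 61.4, 91.0, 37.4 and 82.2 CPM. The non-LRC libraries had 904, 247, 367 and 481 counts, or 113, 51.6, 57.9 and 94.9 CPM. LLRCs were higher in JV621 alone and lower in the other 3 mice, and the ranges overlapped over most of their length. The log2 fold change was -0.22 (standard error 0.38, edgeR adjusted p = 0.9999; exact permutation p = 0.571). Its interval ran from -1.09 to 0.64, that is from 0.471 to 1.56 times the non-LRC level. This was the narrowest interval among the tested members. In each of the 20 alternative analyses its log2 fold change was below 0, between -0.55 and -0.0080.

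**Figure D2:**
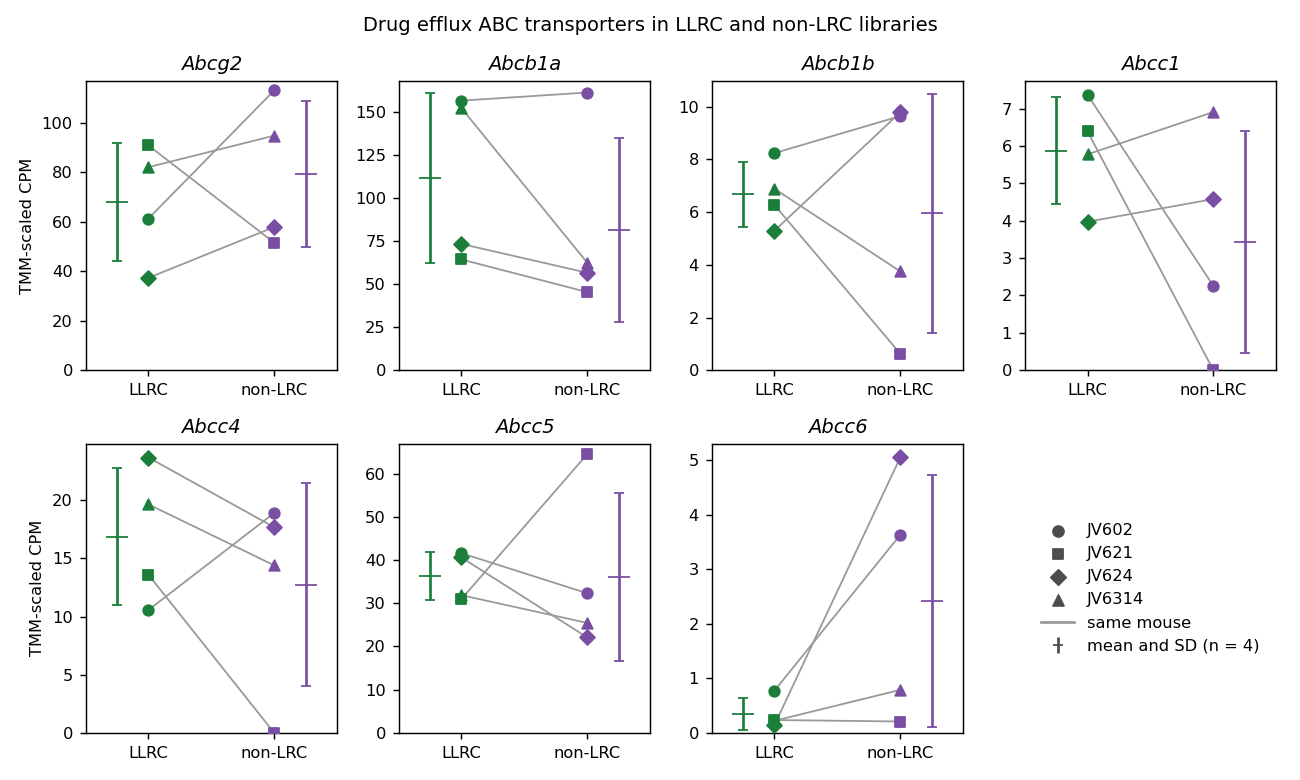
TMM-scaled CPM of the 7 drug efflux transporters in LLRC (green) and non-LRC (purple) libraries, with lines joining libraries of the same mouse and the mean and SD of each group (n = 4) at the side. The groups overlap for every gene, with Abcg2 higher in LLRCs in 1 mouse and Abcb1a in 3.

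The Abcc members export organic anions. Abcc5 (chr16:20331303-20426394, minus strand), which carries cyclic nucleotides and nucleotide analogues, was the most abundant of them, with 429, 262, 276 and 287 counts in LLRCs, or 41.6, 31.0, 40.6 and 31.9 CPM. In non-LRC cells it had 258, 309, 140 and 129 counts, or 32.3, 64.5, 22.1 and 25.5 CPM. LLRCs were higher in JV602, JV624 and JV6314, whereas in JV621 the non-LRC library was the highest of all. The group means were nearly equal, at 36.3 ± 5.60 and 36.1 ± 19.4 CPM, and the log2 fold change was 0.01 (standard error 0.39, interval -0.88 to 0.90, edgeR adjusted p = 0.9999). Without the non-LRC library of JV621 the log2 fold change was 0.45, and without that of JV624 it was -0.18. The sign also turned under another scaling, to -0.06 with the size factors of DESeq2.

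Abcc4 (chr14:118482692-118706219, minus strand) carries cyclic nucleotides and bile acids across the basolateral membrane. The LLRC libraries held 109, 115, 161 and 177 counts, or 10.6, 13.6, 23.7 and 19.7 CPM. Non-LRC libraries held 151, 0, 112 and 73 counts, or 18.9, 0, 17.7 and 14.4 CPM. The non-LRC library of JV621 was the lowest, apart from the other libraries, and a count of 0 there allows up to 0.626 CPM for counting error alone. Without it the log2 fold change of 0.40 (standard error 0.98, edgeR adjusted p = 0.9999) was -0.0031.

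Abcc1 (chr16:14361558-14475737, plus strand) encodes a basolateral exporter of glutathione conjugates. It had 76, 54, 27 and 52 counts in LLRCs, or 7.37, 6.39, 3.97 and 5.77 CPM. In non-LRC cells it had 18, 0, 29 and 35 counts, or 2.25, 0, 4.58 and 6.91 CPM. LLRCs were higher in JV602 and JV621 and somewhat lower in JV624 and JV6314. Among the tested members it had the largest log2 fold change, 0.77 (standard error 0.96, interval -1.39 to 2.93, edgeR adjusted p = 0.9999; exact permutation p = 0.229). That value was 0.38 without the non-LRC library of JV621, where 15.6% of the genes tested had 0 counts as Abcc1 and Abcc4 did, and 1.35 without the non-LRC library of JV6314.

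Abcc6 (chr7:45967555-46030302, minus strand) is best known in hepatocytes, where it mediates release of ATP. It had too few reads to pass the expression filter. Counts were 8, 2, 1 and 2 in LLRCs, or 0.775, 0.237, 0.147 and 0.222 CPM, against 29, 1, 32 and 4 in non-LRC cells, or 3.63, 0.209, 5.05 and 0.789 CPM. The non-LRC libraries of JV602 and JV624 were the highest, those of JV621 and JV6314 were near or at the LLRC levels, and the groups overlapped (exact permutation test, two-sided, p = 0.143). The floor of 3 counts, used here for counting error, corresponds to between 0.291 and 0.626 CPM, and 3 LLRC libraries were below it. With no filter the log2 fold change was -2.71 (standard error 1.20, edgeR unadjusted p = 0.0433, adjusted p = 0.633). The difference between the group means, -2.07 CPM, was -1.20 CPM without the non-LRC library of JV624 and -2.81 CPM without that of JV621. Summed hepatocyte markers in the non-LRC libraries were 3928 CPM in JV602, 2603 CPM in JV621, 7626 CPM in JV624 and 5843 CPM in JV6314, and their part in the Abcc6 reads was not tested.

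Of the 7 members, 6 passed the expression filter and were tested with all other genes. In edgeR's quasi-likelihood test 0 of 6 had an adjusted p below 0.05, where the share of all 13605 genes called was 0%, and 0 of 6 had an unadjusted p below 0.05, against 5.16% of all genes. DESeq2, which called 1.62% of all genes, and edgeR's exact test without a filter, which called 0.417%, called no member. Limma called 0 members, with 0% of all genes called. Among the 7 members, 0 had groups that did not overlap, against 2.15% of the tested genes in the higher and 1.91% in the lower direction. No member was higher in LLRCs in all 4 mice or lower in all 4, against 7.74% and 5.53% of the tested genes. Of the 6 tested members 5 had a log2 fold change above 0, against 48.9% of all genes, with a median of 0.28 against -0.01. Within mice, differences in log2(CPM + 0.5) gave exact sign-flip p-values between 0.25 and 0.75, where 0.125 is the smallest that 4 mice allow.

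**Figure D3:**
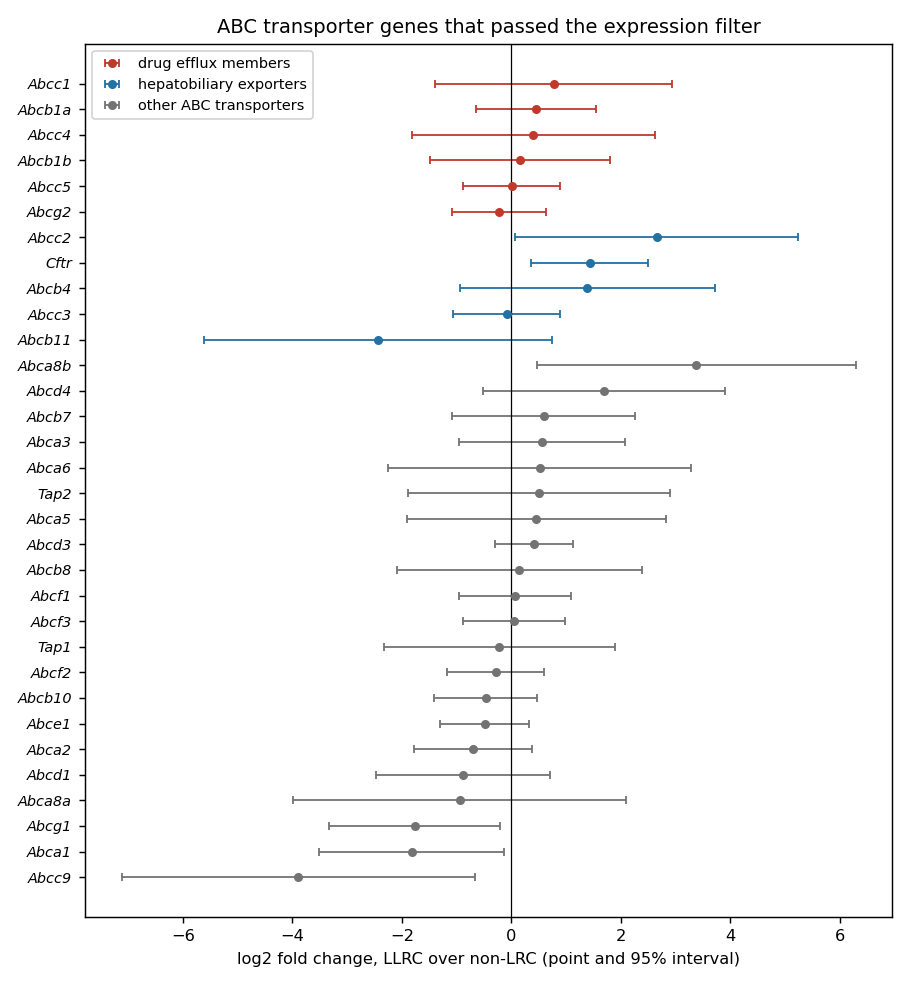
Log2 fold change (LLRC over non-LRC) with its 95% interval for the ABC transporter genes that passed the expression filter, in 3 groups. The intervals of all 6 drug efflux members (red) span 0, from Abcg2 at -0.22 to Abcc1 at 0.77, while before adjustment for multiple tests those of Cftr (1.43), Abcc2 (2.65) and Abca8b (3.38) lie above 0 and those of Abca1 (-1.82), Abcg1 (-1.77) and Abcc9 (-3.89) below 0.

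Levels were compared between members as CPM per kilobase of exon, counting the bases of all annotated exons of a gene. That length was 15092 bases for Abcc1, 10681 for Abcc5, 6389 for Abcc4 and 5721 for Abcc6. Their transcripts with the longest coding sequence had 6792, 5811, 5715 and 4974 bases, in the same order. The order of members with close levels therefore depends on the length used. In LLRCs the order was Abcb1a (20.3 ± 9.03; SD, n = 4), Abcg2 (8.34 ± 2.93), Abcc5 (3.39 ± 0.525), Abcc4 (2.64 ± 0.924), Abcb1b (0.835 ± 0.154), Abcc1 (0.389 ± 0.0947) and Abcc6 (0.0604 ± 0.0506). By this length each member was above the next in all 4 libraries, except that Abcc5 was above Abcc4 in 3 (exact sign-flip p = 0.25). The exception was the LLRC library of JV6314, with Abcc5 at 2.98 and Abcc4 at 3.08. Before division by length they were at 31.9 and 19.7 CPM there, so the exception depends on the length used. For the other neighbours the p was 0.125, the smallest possible, so the design cannot set them apart by this test. In non-LRC cells Abcb1a (14.8 ± 9.79) again led Abcg2 (9.74 ± 3.62), but in 3 of 4 libraries (exact sign-flip p = 0.25). The order went on with Abcc5 (3.38 ± 1.82), Abcc4 (2.00 ± 1.36), Abcb1b (0.745 ± 0.567), Abcc6 (0.423 ± 0.403) and Abcc1 (0.228 ± 0.197). Abcc5 was above Abcc4 in 3 of 4 libraries (exact sign-flip p = 0.625), and Abcc4 above Abcb1b in 3 (exact sign-flip p = 0.25). Abcg2 was above Abcc5, and Abcb1b above Abcc6, in all 4 (exact sign-flip p = 0.125 for each). By this length Abcc1 and Abcc6 changed places between the groups. The exon length of Abcc1 is far above its transcript length, so the exchange is not read as a group difference. In non-LRC cells the difference between Abcc6 and Abcc1 was also within the spread (exact sign-flip p = 0.375).

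**Figure D4:**
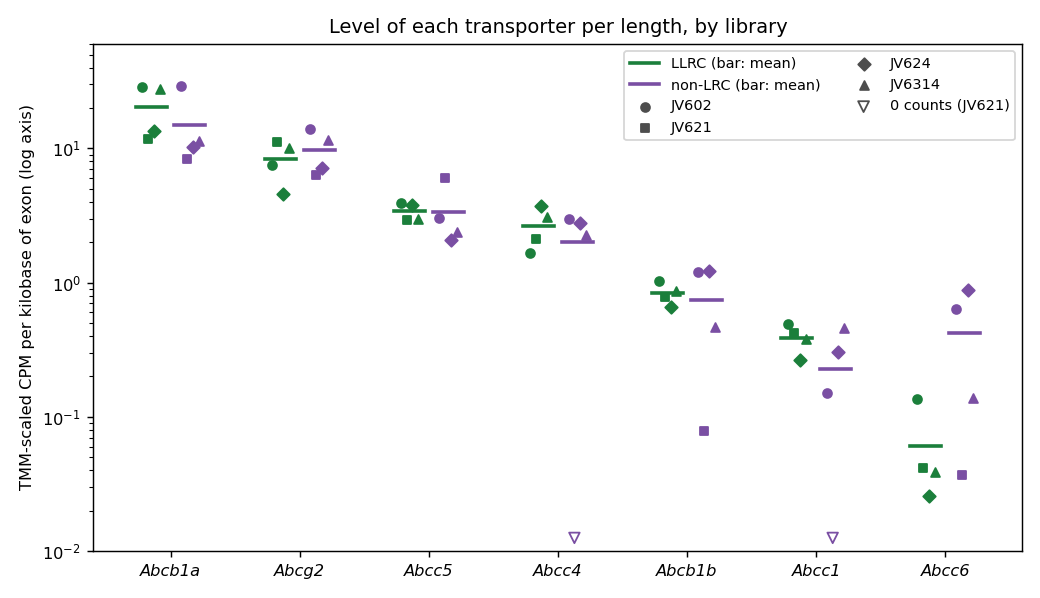
TMM-scaled CPM per kilobase of exon (log axis) of each member in every library, by mouse (symbol) and group (colour), with bars for group means. Abcb1a and Abcg2 lead in both groups (20.3 and 8.34 in LLRCs, 14.8 and 9.74 in non-LRC cells), the spread of the low members is wider in non-LRC cells, and open triangles at the lower edge mark 0 counts of Abcc4 and Abcc1 in the non-LRC library of JV621.

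Spread between mice was wider in non-LRC cells for each of the 7 members, as it was for 82.6% of the tested genes. Against the tested genes, the spread of Abcg2 was at percentile 57.1 in LLRCs and 23.98 in non-LRC cells, and that of Abcb1a at 71.3 and 55.2. The coefficient of variation in LLRCs ran from 15.5% for Abcc5 to 44.4% for Abcb1a among the tested members. In non-LRC cells it ran from 37.2% for Abcg2 to 86.6% for Abcc1. Abcb1b went from 18.5% in LLRCs to 76.1% in non-LRC cells, where the highest library had 15.6 times the CPM of the lowest. The lowest was the non-LRC library of JV621, with 3 counts, and the other 3 non-LRC libraries were between 3.75 and 9.79 CPM. The difference in spread was not tested, and the non-LRC libraries were also the shallower group.

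For each tested member, the gene whose log2 CPM over the 8 libraries was nearest in shape was found among 13604 others. The measure was the root mean square difference after each gene was centred on its own mean. Abcc5 was nearest to Smim8 (0.115), Abcb1a to Smoc1 (0.222), Abcb1b to Il11ra1 (0.225), Abcg2 to Rnf14 (0.235), Abcc4 to Ccnq (0.254) and Abcc1 to Zmym1 (0.321). The median over all genes compared was between 0.876 for Abcc5 and 2.00 for Abcc4. The member's own spread, by which a gene level in all libraries would differ from it, was between 0.443 for Abcc5 and 1.99 for Abcc4. That spread was 0.497 for Abcg2, whose nearest gene still differed by 0.235. A best match among that many genes is near by construction. No member was the nearest gene of another.

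Other ABC exporters of the hepatobiliary system were read beside the members. Of 7 such genes 5 were tested, 0 were called and 2, Cftr and Abcc2, had an unadjusted p below 0.05, both higher in LLRCs, where 1.6% of all genes were. The median log2 fold change of the tested 5 was 1.39, against -0.01 over all genes. Cftr, the chloride channel of bile duct cells, averaged 149 ± 55.5 CPM in LLRCs against 55.0 ± 30.0 CPM in non-LRC cells (log2 fold change 1.43, standard error 0.47, edgeR adjusted p = 0.688) and was higher in LLRCs in 3 of 4 mice. Abcc2, the canalicular exporter of bilirubin conjugates, stood at 4.47 ± 4.56 and 0.672 ± 0.641 CPM (log2 fold change 2.65, edgeR adjusted p = 0.951). Abcc3, a basolateral exporter of glucuronides, was at 38.6 ± 6.00 and 40.9 ± 26.1 CPM. Abcb4, the phospholipid flippase, was at 5.37 ± 2.43 and 2.02 ± 2.33 CPM, and Abcb11, the bile salt export pump, at 1.53 ± 1.37 and 8.26 ± 10.5 CPM. The sterol transporters Abcg5 (0.269 ± 0.314 and 1.36 ± 2.57 CPM) and Abcg8 (0.877 ± 0.674 and 0.541 ± 0.709 CPM) did not pass the filter.

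Of 39 further ABC genes 21 were tested and 0 were called, with 1 higher and 3 lower in LLRCs at an unadjusted p below 0.05, where 1.6% and 3.56% of all genes were, and a median log2 fold change of 0.05. The smallest p belonged to Abcc9, a subunit of ATP-sensitive potassium channels, at 1.65 ± 1.42 and 24.9 ± 27.7 CPM (log2 fold change -3.89, edgeR adjusted p = 0.809). Abcc9 was higher in LLRCs in 1 of 4 mice, and its groups overlapped. The highest mean CPM was that of Abcd3, a peroxisomal fatty acid transporter, at 205 ± 39.4 and 154 ± 53.0 CPM.

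The genes that supply or control the members were read in the same way. The 12 listed regulators of efflux genes were transcription factors apart from Keap1. Of these 12, 10 were tested, and 0 had an unadjusted p below 0.05, where 5.16% of all genes did (median log2 fold change -0.04, against -0.01 over all genes). None was called by edgeR or limma, which called 0% of all genes, or by DESeq2, which called 1.62%. Nfe2l2, which encodes the oxidative stress factor NRF2, stood at 254 ± 111 and 257 ± 119 CPM, and Ahr, the dioxin receptor, at 30.6 ± 30.3 and 91.1 ± 104 CPM (log2 fold change -1.57, edgeR adjusted p = 0.9999). All 12 genes of glutathione supply and conjugation were tested and 0 were below 0.05 unadjusted, against the same 5.16% (median -0.23, against -0.01). Gclc, the catalytic subunit of the first step of glutathione synthesis, was at 47.0 ± 18.4 and 78.1 ± 17.4 CPM (log2 fold change -0.73, edgeR adjusted p = 0.977), and Mgst1, a microsomal glutathione transferase, at 1461 ± 289 and 1502 ± 283 CPM.

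The list of drug and anion carriers of the SLC families holds mostly uptake carriers, and also the cation extruder Slc47a1 and the export subunits Slc51a and Slc51b. Of its 14 genes 7 were tested, 0 were called, all 7, Slc47a1 (-3.06) among them, had a log2 fold change below 0, as 6958 of the 13605 tested genes did, and the median was -2.50. Slco2a1, a prostaglandin carrier, was the only one of them at an unadjusted p below 0.05, where 3.56% of all genes were lower in LLRCs. It stood at 2.22 ± 1.69 CPM in LLRCs against 15.9 ± 11.8 CPM in non-LRC cells (log2 fold change -2.82, edgeR adjusted p = 0.510). In 1 of 4 mice it was higher in LLRCs, and the groups overlapped. Among the 61 tested genes of the lists of ABC exporters, regulators, glutathione genes, carriers and scaffold proteins, DESeq2 called Slco2a1 alone. Its log2 fold change there was -2.85 (DESeq2 adjusted p = 0.0243), while limma called none of the 61. Slco1a1, Slco1b2 and Slc10a1, carriers known from hepatocytes, were at 53.5 ± 58.8, 65.2 ± 70.7 and 63.9 ± 47.0 CPM in non-LRC cells and at 6.47 ± 3.40, 11.6 ± 9.39 and 15.9 ± 11.4 CPM in LLRCs. The hepatocyte markers had a median log2 fold change of -0.94 and the endothelial markers one of -3.78, on the same side of 0, and their part was not tested. Slco3a1, the carrier with the highest mean CPM, was at 54.8 ± 13.9 and 54.9 ± 11.7 CPM. Of 6 apical scaffold proteins, which anchor exporters at the membrane, 6 were tested, 0 were called and 1, Msn, was lower in LLRCs at an unadjusted p below 0.05, against 3.56% of all genes (median -0.61). Msn, which encodes moesin, was lower in all 4 mice and stood at 17.7 ± 9.96 and 73.9 ± 67.3 CPM (log2 fold change -2.06, edgeR adjusted p = 0.688). The endothelial markers were lower as well (median -3.78), and the part of endothelial cells in the Msn reads was not tested. Rdx, which encodes radixin, stood at 451 ± 91.4 and 395 ± 105 CPM.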

How the data were processed

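RNA-seq was analysed for 4 LLRC and 4 non-LRC libraries. The authors deposited raw counts per gene, made with HTSeq from reads over exons (GRCm38.p4, union mode, strand ignored); the aligner is not given in the sources used here. Their table of edgeR results (edgeR 3.2.4) holds fold changes and p-values and was not used. Gene symbols and coordinates came from GENCODE M21 (GRCm38), with 46005 of 46603 identifiers matched. Counts were scaled by TMM, filtered with filterByExpr and compared by the quasi-likelihood test of edgeR 4.0.16 (R 4.3.3) on group alone, with Benjamini-Hochberg adjustment over 13605 genes and a threshold of 0.05. The tests were tested on simulated data. DESeq2 1.42.0, limma 3.58.1, other filters and scalings, the mouse as a block and leaving out libraries were alternatives. CPM of single genes were compared by exact permutation tests (scipy 1.17.1), and 0.5 CPM was added before logs of within-mouse differences.

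The libraries of a mouse, named in the sample titles, pair across groups. As a check, r between their deviations from group means was 0.096 in JV602, 0.074 in JV621, 0.003 in JV624 and 0.171 in JV6314. The members and lists were chosen with earlier results of these data known. The text names every member, in each list the gene with the smallest unadjusted p and the one with the highest mean CPM, all hepatobiliary exporters, sort checks, and for each tested member the gene nearest in shape. Slco1a1, Slco1b2, Slc10a1, Slc47a1, Aqp1, Abca8b, Abca1 and Abcg1 were chosen after their values were seen, as was the fold change of Abcc2. 3 counts correspond to between 0.291 and 0.626 CPM, and this floor and the Wilson intervals cover counting error only.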

Additional observations from a re-analysis of the deposited data

Results flagged for a closer look

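Values of the 7 members and of the Abcb1a share were checked in each group of 4 libraries for a highest or lowest library far from the others. Of 16 groups checked 2 held one, and chance alone gives about 1 in 20. Abcb1a was at 161 CPM in the non-LRC library of JV602, while the other non-LRC libraries were between 45.3 and 62.4 CPM. Abcc6 was at 0.775 CPM (8 counts) in the LLRC library of JV602, while the other LLRC libraries held 1 or 2 counts.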

How the results depend on the processing

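Over 20 alternatives, 0 members were called in each, and 1 member had an unadjusted p below 0.05 in 4 of them (Abcc6 under both looser filters and in the exact test, Abcb1a without the non-LRC library of JV602). The number of genes called moved from 0 to 11 with no expression filter, 221 with DESeq2, 115 with edgeR's exact test and no filter together, and 72 with a newer quasi-likelihood dispersion, and was between 0 and 6 when a library was left out, the highest without the non-LRC library of JV602. Of 61 tested genes on the lists other than cell type markers, DESeq2 called 1. With the mouse as replicate block no call changed: 0 genes and 0 members were called, and the members' log2 fold changes were between -0.23 (Abcg2) and 1.32 (Abcc1). The sign of Abcb1b turned with limma (-0.13), that of Abcc5 with DESeq2 (-0.055) and with its size factors (-0.056). Leaving out both libraries of JV621 or of JV6314, chosen after seeing the data, turned Abcb1b to -0.18 and -0.023, and the latter turned Abcc5 to -0.067. Leaving out 1 library gave log2 fold changes for Abcb1a between 0.25 and 1.02, for Abcb1b between -0.20 and 0.50, for Abcc4 between -0.0031 and 0.65 and for Abcc5 between -0.18 and 0.45. The differences in CPM ran between -1.05 and 1.999 for Abcb1b, between -0.123 and 6.23 for Abcc4 and between -4.51 and 9.64 for Abcc5, and those of the Abcb1a share between -2.01 and 2.45 percentage points. Except where construction shows it, the cause was not tested. Abcc6 was at or under the floor of 3 counts in 3 LLRC libraries and 1 non-LRC library.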
